A study of Mus musculus with 28 samples.

Results

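The genes described here are 44 genes of the interstitial matrix and of fibrosis, taken from a bulk RNA-seq study of mouse kidneys. They were chosen by name: a table row whose symbol was on the list was a member, with Ctgf also called Ccn2. The 44 genes are 13 collagens, 12 matrix glycoproteins, 4 proteoglycans, 3 collagen crosslinkers, 6 genes of TGF-beta signalling, the PDGF receptor Pdgfra, and 5 matrix proteases and protease inhibitors. All 44 had a row among the 14845 genes of the table. Testing was limited to genes that reached a value of 1 in 5 or more of the 28 libraries, which 42 members and 13495 genes in all passed. The 2 that did not were Postn (periostin, a matricellular glycoprotein), which reached 1 in 2 libraries, and Vcan (versican, a large chondroitin sulfate proteoglycan), which reached 1 in 1 library. Some of the 42 passed mainly through the diseased kidneys. Timp1 reached 1 in 7 and 5 libraries of db/db Unx at 26 and 35 weeks and in none of db/m. Lox did so in 11 and 5 libraries of db/db Unx and in 1 of db/m, and Ltbp2 in 1 and 3 libraries of db/db Unx and in 1 of db/m. The list was also chosen with earlier results of these data known. The counts of members below are therefore descriptions of the list, not evidence about it.

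The tissue was whole kidney of male mice. The diseased groups were uninephrectomized (Unx) db/db mice, which had lost 1 kidney, with 12 libraries at 26 weeks and 5 at 35 weeks of age, and the controls were intact db/m mice, with 5 libraries at 26 weeks and 6 at 35 weeks. A db/db mouse has no working long leptin receptor and becomes obese and diabetic, while a db/m mouse carries 1 normal copy of that gene and does not. All db/db mice had lost a kidney and all db/m mice were intact, so genotype and surgery cannot be told apart and form a single contrast, the disease comparison. Nothing in the labels says whether each library is a separate animal, so the p-values measure the spread between libraries.

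In fibrosis of the kidney, fibroblasts, pericytes and cells derived from them deposit collagen I and III fibrils, fibronectin and other glycoproteins between the tubules. Fibrils are organised by small proteoglycans such as decorin and biglycan and are joined covalently by lysyl oxidases. TGF-beta, held latent in the matrix by binding proteins, is the best known inducer of these genes, and metalloproteinases with their tissue inhibitors (TIMPs) set how fast matrix is removed.

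The libraries held an estimated 21.8 to 30.6 M (mega) reads, read from the steps between low values, and a deposited value of 1 stood for about 22.4 to 33.8 reads. In bulk tissue, fewer cells of a type and less RNA per cell cannot be told apart, which holds for every value below. Replicates 3, 5 and 6 of db/db Unx at 35 weeks lay apart from the rest. On the second principal component of all tested genes, which carried 9.17% of the variance, they stood at -42.8, -26.7 and -20.1, and the other libraries lay between -9.21 and 17.4. The summed level of 8 macrophage markers was 227, 205 and 195 in these 3 libraries and 124 and 80.7 in replicates 1 and 2 of the same group. Results at 35 weeks are therefore given also without the 3.

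Sequence upstream of 4 members is shown as an example of each kind of result: Col1a2 as a fibril collagen and Timp1 as a low gene that were higher in db/db Unx, Timp3 as the member that fell most, and Tgfbi as the member whose disease comparison differed between the ages. The sequences are from RefSeq on build GRCm38.p6, plus strand, 5′ to 3′, and end at or before the start of transcription. Each is the longest run of the 250 bases upstream of the start that lies outside annotated exons of the gene. The whole 250 bases were searched on both strands for TGANTCA (an AP-1 site), CAGACA (a Smad box), CCAAT and TATAAA, and capitals mark the matches. The Col1a2 stretch (chr6:4505370-4505492) holds CAGACA, and a CCAAT closer to the start lies outside it. The Timp1 stretch (chrX:20869916-20870165) holds CCAAT on the minus strand, and those of Timp3 (chr10:86300162-86300371) and Tgfbi (chr13:56609336-56609522) hold no match.
Col1a2: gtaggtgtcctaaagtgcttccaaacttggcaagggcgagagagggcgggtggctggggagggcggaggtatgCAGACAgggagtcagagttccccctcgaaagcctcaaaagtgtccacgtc
Timp1: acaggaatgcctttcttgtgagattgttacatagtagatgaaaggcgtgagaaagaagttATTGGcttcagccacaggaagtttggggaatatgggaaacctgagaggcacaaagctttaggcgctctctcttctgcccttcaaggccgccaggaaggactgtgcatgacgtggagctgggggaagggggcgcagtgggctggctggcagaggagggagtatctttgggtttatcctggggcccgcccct
Timp3: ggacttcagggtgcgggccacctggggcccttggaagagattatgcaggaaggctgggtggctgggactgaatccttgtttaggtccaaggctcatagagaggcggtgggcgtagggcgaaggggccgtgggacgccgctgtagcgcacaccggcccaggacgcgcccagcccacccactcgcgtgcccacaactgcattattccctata
Tgfbi: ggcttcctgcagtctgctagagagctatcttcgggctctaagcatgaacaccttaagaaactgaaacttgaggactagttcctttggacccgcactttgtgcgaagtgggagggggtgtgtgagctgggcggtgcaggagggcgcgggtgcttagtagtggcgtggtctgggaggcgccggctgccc

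Of the 44 members, 30 had at least 1 such upstream window in the RefSeq table, 38 windows in all. CAGACA was present in 14 of the 38 windows (36.8%) and in 17.1% of the 32851 windows of all genes. CCAAT was present in 31.6% of the members' windows and 33.8% of all, TATAAA in 15.8% and 12.4%, and TGANTCA in 2.63% and 6.75%. These shares describe letters in the windows and were not tested.

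More matrix genes were higher than lower in the kidneys of db/db Unx mice at both ages. With all libraries more were called at 35 than at 26 weeks. Without replicates 3, 5 and 6 of db/db Unx at 35 weeks fewer were (16 at 35 weeks, against 22 at 26 weeks). At 26 weeks 22 of the 42 tested members were called, beside 34.9% of all tested genes. Of these 19 were higher in db/db Unx and 3 were lower (Tgfbi, Tgfbr2 and Timp3), where 17.2% of all tested genes were higher and 17.7% lower. At 35 weeks 27 members were called, beside 32.3% of all tested genes. Of these 26 were higher and 1 was lower (Timp3), where 15.9% of all tested genes were higher and 16.4% lower. The median log2 difference over the 42 members, db/db Unx minus db/m, was 0.43 at 26 weeks and 0.70 at 35 weeks, beside 0.02 and 0.01 over all tested genes. At both ages 16 members were higher, beside 9.99% of all genes: Col1a1, Col1a2, Col6a1, Col6a2, Col8a1, Col12a1, Col18a1, Fn1, Thbs1, Eln, Bgn, Lox, Pdgfra, Mmp14, Timp1 and Timp2. The values of the groups did not overlap for 6 members higher and 2 lower at 26 weeks, where 5.11% and 7.68% of all tested genes did so, and for 14 higher and 1 lower at 35 weeks, where 7.84% and 10.3% did. A further 10 members were called at 35 weeks and not at 26, all of them higher, where 9.86% of all genes were so called and 5.86% were higher. At 26 weeks and not at 35, 5 members were called, beside 12.5% of all genes: Thbs2, Dcn and Tgfb2 were higher, as were 7.17% of all genes, and Tgfbi and Tgfbr2 lower, as were 5.33%. At neither age 10 members were called, beside 55.2% of all genes. The log2 difference was larger at 35 than at 26 weeks for 33 of the 42 (78.6%) and for 49.0% of all genes, and the test of that difference between the ages passed for 1 member, Tgfbi. The median of 0.70 and the count of 33 rest on all libraries. With replicates 3, 5 and 6 of db/db Unx left out, the difference between the ages turned below 0 for several members. These were Col6a1 (-0.39), Fbn1 (-0.06), Tgfb1 (-0.03), Ltbp1 (-0.06), Mmp14 (-0.22) and Timp2 (-0.04), and none turned above 0. Without replicates 3, 5 and 6 of db/db Unx, 16 members were called at 35 weeks, beside 17.8% of all genes, and 20 had an unadjusted p below 0.05, beside 28.4%. Fewer libraries enter that fit. Among the 11 members no longer called, the log2 difference of Pdgfra was 0.77 (0.80 with all libraries), of Lum 0.77 (0.83), of Loxl1 0.49 (0.62) and of Loxl2 0.60 (0.78). It was smaller by over 1.5 times for the other 7: Col3a1 at 0.51 (0.79), Col6a1 at 0.47 (0.89), Col14a1 at 0.19 (0.40), Fbn1 at 0.39 (0.73), Ctgf at 0.11 (0.48), Ltbp2 at 0.33 (0.70) and Mmp14 at 0.35 (0.77).

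**Figure D1:**
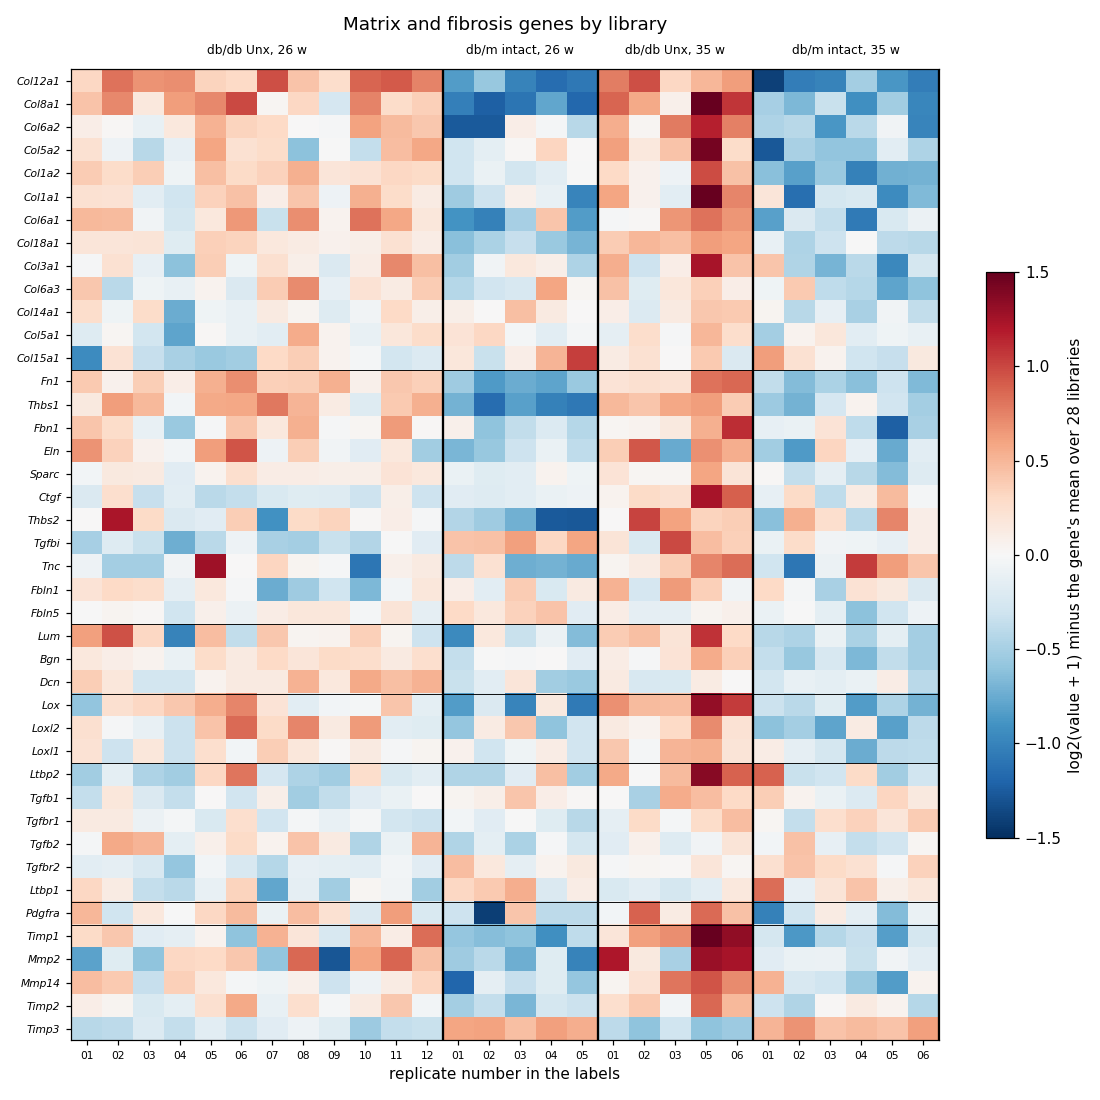
Each row is a tested member and each column a library, grouped from left to right as db/db Unx and db/m intact at 26 weeks and db/db Unx and db/m intact at 35 weeks. Colour is log2(value + 1) minus the gene's mean over the 28 libraries, ending at 1.5 in either direction; most rows are red in db/db Unx at 35 weeks, deepest in replicates 5 and 6, and Timp3 runs the opposite way at both ages.

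**Figure D2:**
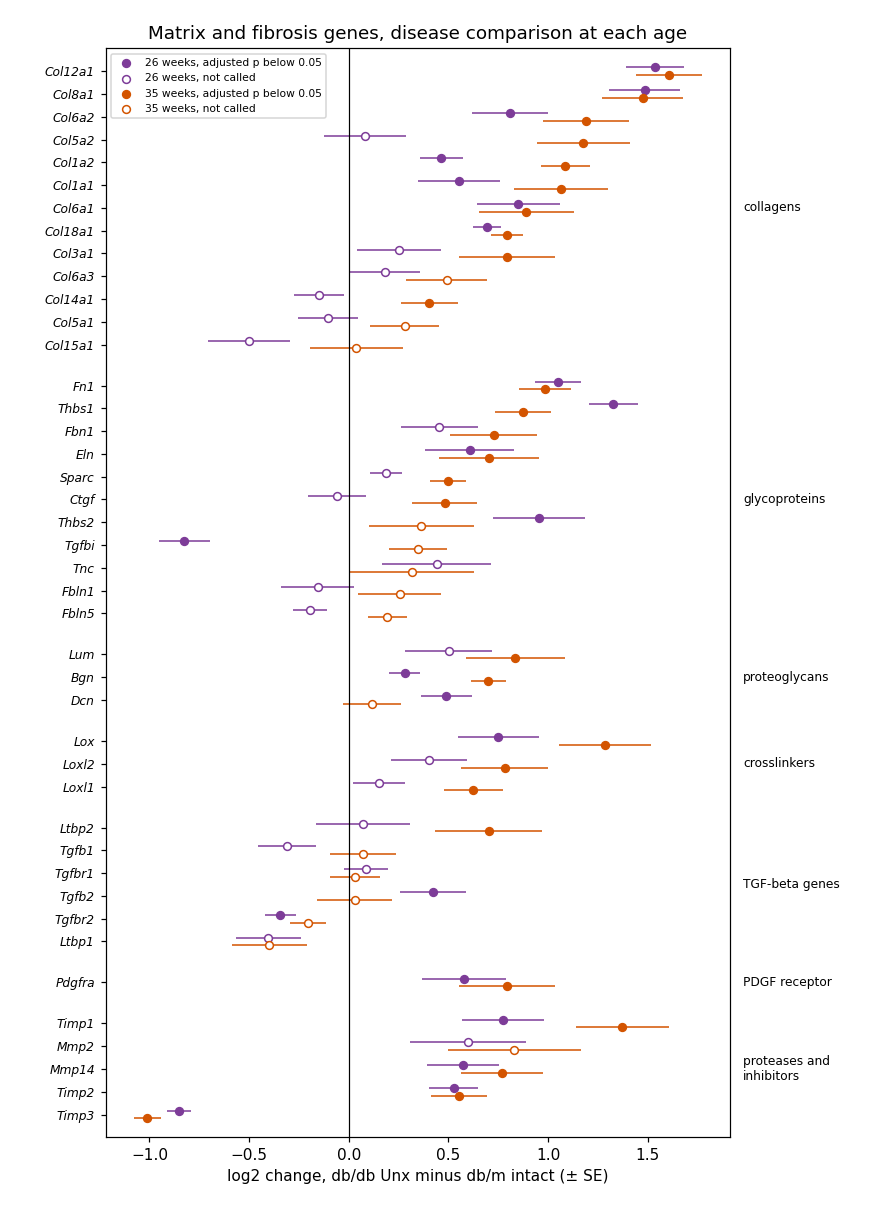
The horizontal axis is the log2 difference, db/db Unx minus db/m intact, with its SE, at 26 weeks (purple) and 35 weeks (orange) for the 42 tested members, grouped by class. Filled points have an adjusted p below 0.05, 22 at 26 weeks and 27 at 35 weeks.

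Of the 13 collagens, the largest class, 7 (53.8%) were higher in db/db Unx at 26 weeks and 10 (76.9%) at 35 weeks. Of all tested genes 17.2% and 15.9% were higher. Without the 3 libraries that lay apart, 7 of 13 were higher at 35 weeks, where 17.8% of all genes were called in either direction. The share higher was greater for proteoglycans (66.7%) at 26 weeks and for crosslinkers (100%) at 35 weeks. Col12a1, a fibril-associated collagen (chr9:79598991-79718831, GRCm38, minus strand), ranged from 7.67 to 13.1 in db/db Unx at 26 weeks with a median of 10.6, against 3.03, 3.85, 2.60, 2.26 and 2.43 in db/m. At 35 weeks Col12a1 had 11.3, 13.1, 7.94, 9.16 and 10.1 in db/db Unx, and 1.74 to 4.06 with a median of 2.57 in db/m. The groups did not overlap at either age, and the 5 later libraries of db/db Unx fell within the range of its 12 earlier ones. The Col12a1 log2 difference was 1.54 ± 0.15 at 26 weeks and 1.61 ± 0.17 at 35 weeks (SE, limma adjusted p = 6.56e-11 and 6.28e-10).

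Col8a1, a short-chain network collagen of vessels and mesangium (chr16:57624258-57754737, minus strand), ranged from 5.23 to 13.7 with a median of 8.69 in db/db Unx at 26 weeks, against 2.64, 2.17, 2.46, 3.31 and 2.27 in db/m. At 35 weeks Col8a1 had 12.5, 9.93, 6.79, 20.1 and 14.5 in db/db Unx, and 2.75 to 4.85 with a median of 3.88 in db/m. The lowest diseased library stood above the highest control at both ages. The Col8a1 log2 difference was 1.48 ± 0.18 at 26 weeks and 1.47 ± 0.20 at 35 weeks (limma adjusted p = 1.42e-08 and 2.82e-07).

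Col18a1, a basement membrane collagen whose C-terminal fragment is endostatin (chr10:77052178-77166548, minus strand), was the collagen with the highest level per kilobase of transcript. Its values ran from 107 to 156 with a median of 137 in db/db Unx at 26 weeks, against 78.3, 87.3, 95.6, 82.2 and 74.4 in db/m. At 35 weeks Col18a1 had 159, 172, 166, 188 and 184 in db/db Unx, and 87.7 to 121 with a median of 95.1 in db/m. The groups were separate at both ages, and every db/db Unx library of 35 weeks exceeded every one of 26 weeks. The Col18a1 log2 difference was 0.69 ± 0.07 at 26 weeks and 0.79 ± 0.08 at 35 weeks (limma adjusted p = 5.3e-10 and 5.6e-10). Col18a1 overlaps Slc19a1, the reduced folate carrier, on the opposite strand. The labels do not state that strand was used in counting, so reads of the pair cannot be told apart. Slc19a1 had log2 differences of 0.24 ± 0.07 and 0.30 ± 0.07 (limma adjusted p = 0.00394 and 0.0018).

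Col1a2, the alpha-2 chain of collagen I (chr6:4504814-4541544, plus strand), had 25.1 to 38.6 with a median of 32.7 in db/db Unx at 26 weeks, against 21.3, 24.6, 21.7, 23.4 and 26.3 in db/m. At 35 weeks Col1a2 had 32.8, 27.6, 25.0, 52.9 and 36.2 in db/db Unx, and 12.6 to 17.5 with a median of 15.7 in db/m. The groups touched at 26 weeks and were separate at 35 weeks, when the db/m libraries also lay below those of 26 weeks. The Col1a2 log2 difference was 0.46 ± 0.11 at 26 weeks and 1.09 ± 0.12 at 35 weeks (limma adjusted p = 0.000764 and 5.06e-09). The difference between the ages, 0.62 ± 0.16, did not pass (adjusted p = 0.0636). It passed without replicate 2 or without replicate 3 of db/db Unx at 35 weeks (adjusted p = 0.0199 and 0.0301). With all the db/db Unx libraries that lay apart left out, that difference was 0.46 and did not pass (limma adjusted p = 0.312).

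The alpha-1 chain of collagen I, Col1a1, averaged 9.09 ± 1.70 in db/db Unx and 6.00 ± 1.86 in db/m at 26 weeks, and 13.1 ± 7.03 and 5.49 ± 2.20 at 35 weeks (SD, n = 12, 5, 5 and 6). Its log2 difference was 0.55 ± 0.21 at 26 weeks (limma adjusted p = 0.0363) and 1.06 ± 0.24 at 35 weeks (0.000563). The call at 26 weeks was lost without any 1 of replicates 1, 2 and 5 of db/m or 6, 8 and 10 of db/db Unx of that age, with adjusted p between 0.0504 and 0.167, and with quantile normalization (0.0843). Col3a1, the homotrimeric fibril collagen that accompanies collagen I, had log2 differences of 0.25 ± 0.21 (not called) and 0.79 ± 0.24 (adjusted p = 0.0113), and the call at 35 weeks was lost without db/db Unx replicate 5 (0.59, adjusted p = 0.0531) and when only the groups of that age were fitted (0.0613).

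The collagen VI chains Col6a1 and Col6a2, which form beaded microfibrils, were higher at both ages, by 0.85 and 0.81 at 26 weeks and 0.89 and 1.19 at 35 weeks on the log2 scale. For the third chain, Col6a3, the difference was 0.18 and 0.49 and passed at neither age (limma adjusted p = 0.0608 at 35 weeks). It passed at 35 weeks without replicate 4 of db/m at 26 weeks, replicate 2 of db/m at 35 weeks or replicate 2 of db/db Unx at 35 weeks (adjusted p = 0.0138 to 0.0459). Of the collagen V chains that start fibrils, Col5a2 had a log2 difference of 0.08 at 26 weeks (adjusted p = 0.79) and 1.18 at 35 weeks (0.000122), and Col5a1 -0.11 and 0.28, called at neither age. The difference of Col5a2 between the ages was 1.09 ± 0.31 (0.0889) and passed without replicate 2 of db/db Unx at 35 weeks (0.0407). With all the db/db Unx libraries that lay apart left out, that difference was 0.90 and did not pass (limma adjusted p = 0.428). Col14a1, a fibril-associated collagen, had -0.15 and 0.40 (0.0271 at 35 weeks), and its call was lost without any 1 of db/m replicates 2, 4 and 6 or db/db Unx replicates 5 and 6 (0.0561 to 0.0904). Col15a1, a basement membrane zone collagen, had -0.50 and 0.04 and was not called. At 26 weeks it passed as lower when replicate 2 of db/m, any 1 of replicates 2, 7, 8 and 9 of db/db Unx, or replicate 1 of db/m at 35 weeks was left out (0.0167 to 0.0498).

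**Figure D3:**
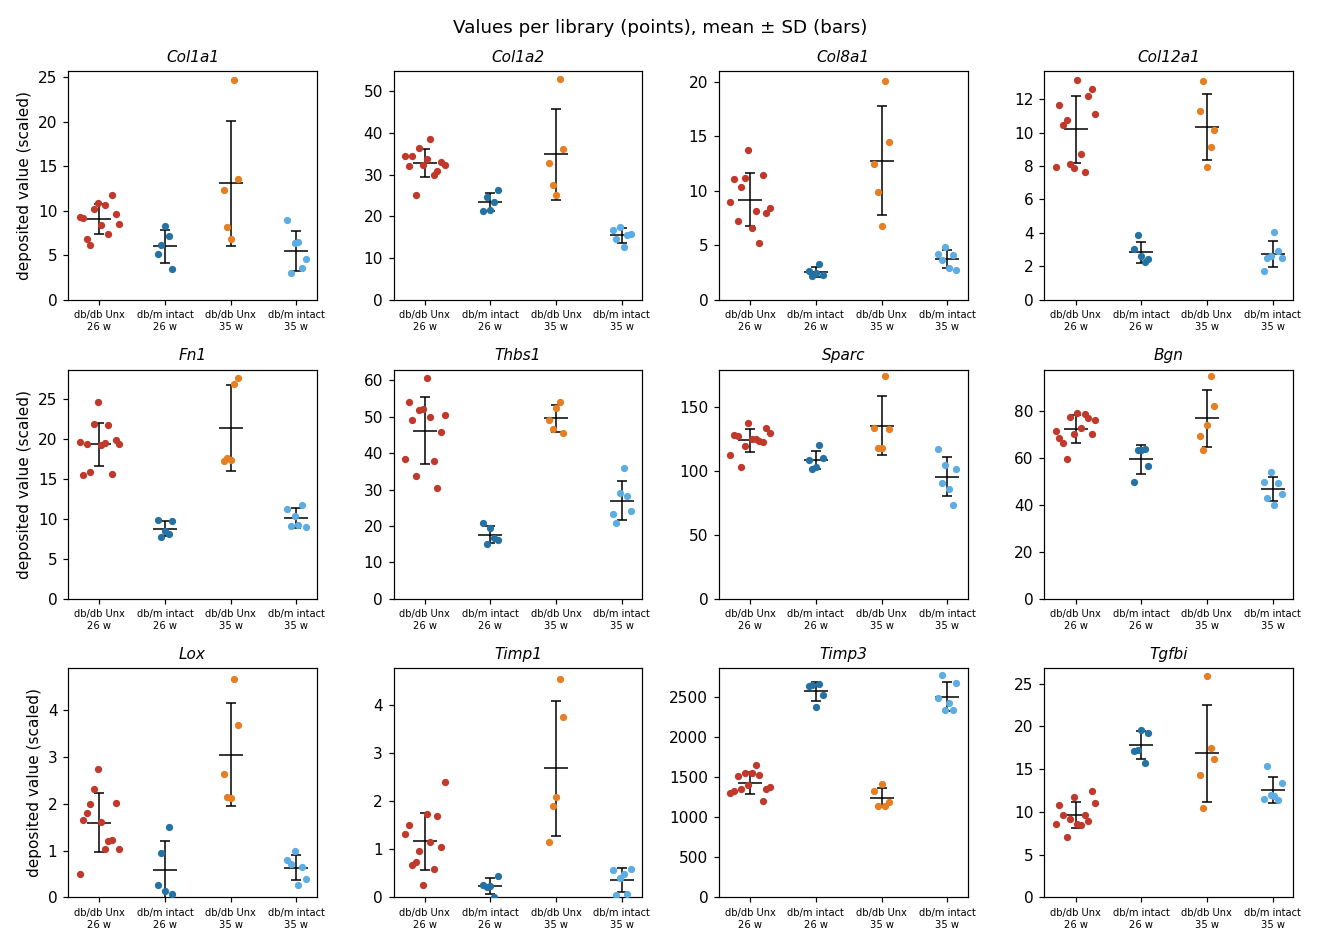
Deposited values of 12 members, 1 point per library, with the group mean and SD as bars, for db/db Unx and db/m intact at 26 weeks and at 35 weeks. For Col8a1, Col12a1, Fn1 and Thbs1 the lowest db/db Unx point lies above the highest db/m point at both ages, and for Timp3 the highest db/db Unx point lies below the lowest db/m point.

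Among the glycoproteins 4 of 11 tested members were higher (36.4%) and 1 lower (9.09%) at 26 weeks, beside 17.2% and 17.7% of all tested genes. At 35 weeks 6 were higher (54.5%, beside 15.9% of all tested genes), and 4 without the 3 libraries, where 17.8% of all genes were called in either direction. Fn1, fibronectin (chr1:71585520-71653200, minus strand), ranged from 15.5 to 24.6 with a median of 19.4 in db/db Unx at 26 weeks, against 9.88, 7.75, 8.45, 8.09 and 9.69 in db/m. At 35 weeks Fn1 had 17.2, 17.6, 17.3, 26.9 and 27.7 in db/db Unx, and 8.97 to 11.8 with a median of 9.77 in db/m. The db/db Unx and db/m libraries did not overlap at either age. The Fn1 log2 difference was 1.05 ± 0.11 and 0.98 ± 0.13 (limma adjusted p = 1.8e-09 and 1.44e-07).

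Thbs1, thrombospondin 1, which can activate latent TGF-beta (chr2:118111876-118127133, plus strand), had 30.3 to 60.7 with a median of 49.5 in db/db Unx at 26 weeks, against 20.8, 15.2, 19.3, 16.6 and 16.04 in db/m. At 35 weeks Thbs1 had 49.2, 46.6, 52.4, 54.0 and 45.5 in db/db Unx, and 20.9 to 36.0 with a median of 26.2 in db/m. The db/db Unx and db/m groups were separate at both ages, and every db/m library of 35 weeks lay above those of 26 weeks. The Thbs1 log2 difference was 1.33 ± 0.12 at 26 weeks and 0.87 ± 0.14 at 35 weeks (limma adjusted p = 7.74e-11 and 5.7e-06). Its relative Thbs2 was higher at 26 weeks, by 0.95 ± 0.23 (adjusted p = 0.00126), and had 0.36 ± 0.26 at 35 weeks (0.319).

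Tgfbi, a secreted collagen- and integrin-binding protein first found as a TGF-beta target (chr13:56609523-56639562, plus strand), ranged from 7.13 to 12.4 with a median of 9.41 in db/db Unx at 26 weeks, against 17.2, 17.2, 19.6, 15.7 and 19.3 in db/m. At 35 weeks Tgfbi had 14.4, 10.5, 25.8, 17.5 and 16.2 in db/db Unx, and 11.4 to 15.4 with a median of 11.9 in db/m. It was lower in all db/db Unx libraries at 26 weeks, and the groups overlapped at 35 weeks, where replicate 3 of db/db Unx was the highest. The Tgfbi log2 difference was -0.83 ± 0.13 at 26 weeks (limma adjusted p = 2.63e-06) and 0.35 ± 0.15 at 35 weeks (0.0671). The difference between the ages was 1.17 ± 0.19 (adjusted p = 0.00711, beside 0.548% of all genes called and 0.393% called in that direction). Without replicates 3, 5 and 6 of db/db Unx at 35 weeks that difference was 0.80 (adjusted p = 0.164). The disease comparison at 35 weeks passed without replicate 2 of db/m (0.043) or without replicate 2 of db/db Unx (0.0067). With replicates 3, 5 and 6 of db/db Unx left out, the Tgfbi log2 difference at 35 weeks was -0.03 (limma adjusted p = 0.949).

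Sparc, a collagen-binding matricellular protein (chr11:55394500-55423183, minus strand), had the highest level per kilobase of the glycoproteins. It had 103 to 138 with a median of 125 in db/db Unx at 26 weeks, against 108, 102, 104, 120 and 110 in db/m. At 35 weeks Sparc had 134, 118, 118, 174 and 133 in db/db Unx, and 73.6 to 117 with a median of 95.96 in db/m. For Sparc the groups overlapped at 26 weeks and were separate, by a narrow gap, at 35 weeks. The Sparc log2 difference was 0.19 ± 0.08 (limma adjusted p = 0.0702) and 0.50 ± 0.09 (4.25e-05). At 26 weeks it passed without replicate 4 of db/db Unx, or without replicate 5 of db/m or of db/db Unx at 35 weeks (0.0348 to 0.0432).

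Of the other glycoproteins, Eln (elastin) was higher at both ages, by 0.61 ± 0.22 and 0.70 ± 0.25 (limma adjusted p = 0.0311 and 0.0296). Both calls were lost without single libraries. At 26 weeks it was lost without any 1 of db/m replicates 1, 2 and 5 or db/db Unx replicate 6 (0.0524 to 0.0902). At 35 weeks it was lost without any 1 of db/m replicates 1, 2 and 5 or db/db Unx replicates 2, 5 and 6 (0.0539 to 0.108). Quantile normalization ended both (0.0662 and 0.0773), and a fit of the groups of 35 weeks alone ended the later one (0.0652). Fbn1 (fibrillin 1, the core of microfibrils) had 0.45 ± 0.19 (0.0617) and 0.73 ± 0.22 (0.00874). Its call at 35 weeks was lost without db/db Unx replicate 6 (0.54, adjusted p = 0.0591). It passed at 26 weeks without replicate 1 of db/m or replicate 4 of db/db Unx of that age, or replicate 5 of db/m or 6 of db/db Unx of 35 weeks (0.0263 to 0.047).

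Ctgf, a matricellular growth factor regulator induced by TGF-beta and by stretch, averaged 63.5 ± 9.34 in db/db Unx and 65.6 ± 2.31 in db/m at 26 weeks, and 111 ± 41.1 and 76.9 ± 16.5 at 35 weeks (SD, n = 12, 5, 5 and 6). Its log2 difference was -0.06 ± 0.15 (limma adjusted p = 0.792) and 0.48 ± 0.17 (0.0264). The call at 35 weeks was lost without db/m replicate 1 or 3 or db/db Unx replicate 5 or 6 (0.0561 to 0.116), and was 0.31 without replicate 5. It was also lost when only the 2 groups of that age were fitted (0.162). Tnc (tenascin C), Fbln1 and Fbln5 (fibulins of elastic fibres) were called at neither age, with log2 differences of 0.44, -0.16 and -0.19 at 26 weeks and 0.32, 0.25 and 0.19 at 35 weeks. Fbln5 passed as lower at 26 weeks without replicate 5 of db/m of that age (-0.29, adjusted p = 0.00674) or replicate 4 of db/m at 35 weeks (0.0435).

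The proteoglycans and the lysyl oxidases were higher in db/db Unx where they were called. Of 3 tested proteoglycans 2 were higher at each age (1 at 35 weeks without the 3 libraries), and of 3 crosslinkers 1 was higher at 26 weeks and 3 at 35 weeks (1 without the 3 libraries). Of all tested genes 17.2% were higher at 26 weeks and 15.9% at 35 weeks, and 17.8% were called in either direction at 35 weeks without the 3 libraries. Bgn, biglycan (chrX:73483602-73495933, plus strand), the proteoglycan with the highest level per kilobase, ranged from 59.6 to 79.1 with a median of 72.0 in db/db Unx at 26 weeks, against 49.5, 63.4, 63.3, 63.9 and 56.5 in db/m. At 35 weeks Bgn had 69.4, 63.4, 74.1, 94.8 and 82.2 in db/db Unx, and 39.8 to 53.9 with a median of 46.8 in db/m. For Bgn the groups overlapped at 26 weeks and were separate at 35 weeks. The Bgn log2 difference was 0.28 ± 0.08 and 0.70 ± 0.09 (limma adjusted p = 0.00453 and 6.57e-08). The difference between the ages, 0.42 ± 0.12, had an adjusted p of 0.0889. It passed without replicate 1 of db/m at 26 weeks (0.0465) or replicate 2 of db/db Unx at 35 weeks (0.0218). Without the 3 libraries that difference was 0.22 and did not pass (limma adjusted p = 0.66).

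Dcn, decorin, which binds collagen I fibrils and TGF-beta (chr10:97479609-97518143, plus strand), had 15.99 to 29.5 with a median of 22.1 in db/db Unx at 26 weeks, against 15.3, 17.5, 22.4, 13.4 and 13.0 in db/m. At 35 weeks Dcn had 21.6, 16.5, 16.6, 21.4 and 19.6 in db/db Unx, and 14.5 to 21.2 with a median of 17.9 in db/m. For Dcn the groups overlapped at both ages. The Dcn log2 difference was 0.49 ± 0.13 at 26 weeks (limma adjusted p = 0.00233) and 0.12 ± 0.14 at 35 weeks (0.587).

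Lum, lumican, a keratan sulfate proteoglycan that spaces fibrils (chr10:97565128-97572703, plus strand), was low, at 0.268 to 3.91 with a median of 1.88 in db/db Unx at 26 weeks, against 0.307, 1.82, 1.01, 1.38 and 0.619 in db/m. At 35 weeks Lum had 2.30, 2.46, 1.90, 4.39 and 2.11 in db/db Unx, and 0.777 to 1.37 with a median of 0.868 in db/m. The overlap at 26 weeks was gone at 35 weeks, with replicate 5 of db/db Unx the highest. The Lum log2 difference was 0.50 ± 0.22 (limma adjusted p = 0.072) and 0.83 ± 0.25 (0.0085). It passed at 26 weeks without replicate 2 of db/m or replicate 4 of db/db Unx (0.0346 and 0.0152).

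Lox, lysyl oxidase, which starts covalent crosslinks in collagen and elastin, had 0.504 to 2.75 with a median of 1.63 in db/db Unx at 26 weeks, against 0.264, 0.953, 0.139, 1.51 and 0.0825 in db/m. At 35 weeks Lox had 2.63, 2.14, 2.11, 4.65 and 3.68 in db/db Unx, and 0.263 to 0.995 with a median of 0.676 in db/m. For Lox the groups overlapped at 26 weeks and were separate at 35 weeks, when each db/db Unx library had over 2 and each db/m library under 1. The Lox difference of log2(value + 1), which understates the change of so low a gene, was 0.75 ± 0.20 and 1.28 ± 0.23 (limma adjusted p = 0.00357 and 3.05e-05). Lox passed the filter through db/db Unx, as only 1 db/m library reached 1. Its p-values are therefore descriptions.

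Loxl1, a lysyl oxidase relative of elastic fibres (chr9:58287738-58313186, minus strand), had 6.44 to 11.0 with a median of 8.88 in db/db Unx at 26 weeks, against 8.70, 6.58, 7.90, 9.06 and 6.60 in db/m. At 35 weeks Loxl1 had 11.3, 8.10, 12.2, 12.5 and 9.62 in db/db Unx, and 4.55 to 9.07 with a median of 6.44 in db/m. For Loxl1 the groups overlapped at both ages, with 1 diseased library inside the control range at 35 weeks. The Loxl1 log2 difference was 0.15 ± 0.13 (limma adjusted p = 0.391) and 0.62 ± 0.15 (0.00109).

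Loxl2, which crosslinks basement membrane and fibril collagen (chr14:69609068-69695834, plus strand), had 2.53 to 6.95 with a median of 4.03 in db/db Unx at 26 weeks, against 1.94, 3.81, 4.81, 1.91 and 2.60 in db/m. At 35 weeks Loxl2 had 3.85, 3.57, 4.40, 6.19 and 4.13 in db/db Unx, and 1.51 to 3.78 with a median of 1.98 in db/m. For Loxl2 the groups overlapped at both ages, at 35 weeks through db/db Unx replicate 2. The Loxl2 log2 difference was 0.40 ± 0.19 (limma adjusted p = 0.103) and 0.78 ± 0.22 (0.00505). It passed at 26 weeks without replicate 3 of db/m (0.033).

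Genes of TGF-beta signalling were called in both directions at 26 weeks. Of 6 tested, Tgfb2 was higher and Tgfbr2 lower at 26 weeks (33.3% called, beside 34.9% of all tested genes), and Ltbp2 was higher at 35 weeks (16.7%, beside 32.3%). Without the 3 libraries no member of this class was called at 35 weeks, beside 17.8% of all genes. The ligand Tgfb1 was called at neither age, at 4.53 ± 0.81 in db/db Unx and 5.82 ± 0.82 in db/m at 26 weeks and 6.17 ± 1.89 and 5.68 ± 1.04 at 35 weeks (SD, n = 12, 5, 5 and 6). The type I receptor Tgfbr1 and the latency protein Ltbp1 were not called either, with log2 differences of 0.09 and -0.40 at 26 weeks and 0.03 and -0.40 at 35 weeks. Ltbp1 passed as lower at 26 weeks when replicate 4 of db/m, any 1 of replicates 1, 2 and 6 of db/db Unx, or replicate 1 of db/m at 35 weeks was left out (limma adjusted p = 0.0227 to 0.0444).

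Tgfbr2, the type II receptor that binds the ligand (chr9:116084293-116175360, minus strand), had the highest level per kilobase of this class. It had 44.6 to 65.5 with a median of 60.3 in db/db Unx at 26 weeks, against 93.5, 75.7, 61.2, 69.9 and 75.0 in db/m. At 35 weeks Tgfbr2 had 66.8, 69.2, 68.6, 76.7 and 68.9 in db/db Unx, and 66.9 to 91.4 with a median of 81.4 in db/m. For Tgfbr2 the groups overlapped at both ages, at 26 weeks through db/m replicate 3. The Tgfbr2 log2 difference was -0.34 ± 0.08 (limma adjusted p = 0.000679) and -0.20 ± 0.09 (0.082). It passed at 35 weeks without replicate 5 of db/m (0.026).

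Tgfb2, the TGF-beta 2 ligand (chr1:186622792-186705989, minus strand), had 0.927 to 2.90 with a median of 1.83 in db/db Unx at 26 weeks, against 0.922, 1.39, 0.901, 1.59 and 1.20 in db/m. At 35 weeks Tgfb2 had 1.35, 1.79, 1.30, 1.53 and 2.00 in db/db Unx, and 1.05 to 2.57 with a median of 1.49 in db/m. For Tgfb2 the groups overlapped throughout. The Tgfb2 log2 difference was 0.42 ± 0.16 (limma adjusted p = 0.0423) and 0.03 ± 0.19 (0.929). The call at 26 weeks was lost without any 1 of db/m replicates 1, 3 and 5 or db/db Unx replicates 2, 3, 6, 8 and 12 (0.0558 to 0.109), with quantile normalization (0.117) and in a fit of the groups of that age alone (0.0651).

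Ltbp2, a microfibril protein of the latent TGF-beta binding family that does not itself bind latent TGF-beta (chr12:84783212-84876532, minus strand), was close to the detection limit. It had 0 to 1.498 with a median of 0.215 in db/db Unx at 26 weeks, against 0.0439, 0.0433, 0.277, 0.964 and 0 in db/m. At 35 weeks Ltbp2 had 1.12, 0.430, 0.996, 2.68 and 1.64 in db/db Unx, and 0 to 1.65 with a median of 0.164 in db/m. For Ltbp2 the groups overlapped at both ages, and replicate 5 of db/db Unx was the highest library. The Ltbp2 log2 difference was 0.07 ± 0.24 (limma adjusted p = 0.845) and 0.70 ± 0.27 (0.0415). Ltbp2 passed the filter mainly through db/db Unx, as only 1 db/m library reached 1, so its p-values are descriptions. The call at 35 weeks was lost without any 1 of db/m replicates 2, 3, 5 and 6 or db/db Unx replicates 1, 5 and 6 (0.0529 to 0.166), and was 0.53 without replicate 5. It was also lost with a pseudocount of 0.1 (0.0793), quantile normalization (0.0745) or the groups of that age alone (0.0604).

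Pdgfra, the PDGF receptor that marks kidney fibroblasts (chr5:75152292-75198215, plus strand), had 9.33 to 18.7 with a median of 13.6 in db/db Unx at 26 weeks, against 9.27, 3.77, 15.9, 8.72 and 8.66 in db/m. At 35 weeks Pdgfra had 11.3, 22.5, 12.9, 21.9 and 16.2 in db/db Unx, and 5.32 to 12.8 with a median of 9.96 in db/m. For Pdgfra the groups overlapped at both ages, at 26 weeks through db/m replicate 3. The Pdgfra log2 difference was 0.58 ± 0.21 and 0.80 ± 0.24 (limma adjusted p = 0.0329 and 0.0107). The call at 26 weeks was lost without db/m replicate 2 (0.33, adjusted p = 0.207), and without db/m replicate 4 or 5 or db/db Unx replicate 11 (0.0504 to 0.0583), and with quantile normalization (0.0669).

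Among proteases and inhibitors, 3 of 5 were higher and Timp3 was lower at both ages, or 2 higher and Timp3 lower at 35 weeks without the 3 libraries. Of all tested genes 17.2% were higher and 17.7% lower at 26 weeks, and 15.9% and 16.4% at 35 weeks. Without the 3 libraries 17.8% were called in either direction at 35 weeks. Timp3, the inhibitor that stays bound to the matrix (chr10:86300372-86349506, plus strand), was the most abundant member per kilobase in every group. It ranged from 1197 to 1655 with a median of 1386 in db/db Unx at 26 weeks, against 2634, 2654, 2372, 2662 and 2531 in db/m. At 35 weeks Timp3 had 1330, 1144, 1413, 1146 and 1192 in db/db Unx, and 2335 to 2774 with a median of 2457 in db/m. The groups were far apart at both ages, with the highest diseased library well below the lowest control. Timp3 fell by 0.85 ± 0.06 on the log2 scale at 26 weeks and by 1.01 ± 0.07 at 35 weeks (limma adjusted p = 2.77e-14 and 1.49e-14).

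Timp3 lies within Syn3 (synapsin III) on the opposite strand. Reads of the 2 genes cannot be told apart where they overlap. Syn3 averaged 18.8 ± 2.06 in db/db Unx and 33.7 ± 4.66 in db/m at 26 weeks, and 14.1 ± 1.94 and 29.7 ± 3.02 at 35 weeks (SD, n = 12, 5, 5 and 6), with log2 differences of -0.80 and -1.03. Over the same groups the summed level of 7 proximal tubule markers was also lower, at 11936 to 14249 in db/db Unx and 16639 to 19116 in db/m at 26 weeks, and 11212 to 12560 and 16196 to 18456 at 35 weeks. Their part in the Timp3 difference was not tested.

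Timp1, a secreted inhibitor induced in injured tissue (chrX:20870166-20874735, plus strand), moved the other way and was low. It had 0.250 to 2.40 with a median of 1.10 in db/db Unx at 26 weeks, against 0.264, 0.217, 0.243, 0 and 0.454 in db/m. At 35 weeks Timp1 had 1.15, 1.91, 2.08, 4.54 and 3.75 in db/db Unx, and 0.0444 to 0.583 with a median of 0.452 in db/m. For Timp1 the groups overlapped at 26 weeks and were separate at 35 weeks, with replicates 5 and 6 of db/db Unx the highest. The Timp1 log2 difference was 0.77 ± 0.21 and 1.37 ± 0.23 (limma adjusted p = 0.00302 and 1.37e-05). Timp1 passed the filter only through db/db Unx, as no db/m library reached 1. Its p-values are therefore descriptions. Timp1 overlaps Syn1 on the opposite strand, which was not analysed here.

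Timp2, the inhibitor that also helps to activate pro-MMP2 (chr11:118301069-118355740, minus strand), had 31.4 to 55.0 with a median of 38.9 in db/db Unx at 26 weeks, against 25.7, 28.6, 22.5, 30.5 and 29.2 in db/m. At 35 weeks Timp2 had 44.1, 48.8, 35.7, 67.8 and 51.9 in db/db Unx, and 26.8 to 40.7 with a median of 33.4 in db/m. The groups were separate at 26 weeks and overlapped at 35 weeks through db/db Unx replicate 3. The Timp2 log2 difference was 0.53 ± 0.12 and 0.55 ± 0.14 (limma adjusted p = 0.000858 and 0.00216).

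Mmp14, the membrane-bound metalloproteinase that activates pro-MMP2 (chr14:54431612-54445364, plus strand), had 6.15 to 11.5 with a median of 8.69 in db/db Unx at 26 weeks, against 2.99, 7.28, 6.17, 7.00 and 5.07 in db/m. At 35 weeks Mmp14 had 8.35, 9.53, 14.9, 16.4 and 13.8 in db/db Unx, and 4.09 to 12.1 with a median of 6.52 in db/m. For Mmp14 the groups overlapped at both ages. The Mmp14 log2 difference was 0.57 ± 0.18 and 0.77 ± 0.21 (limma adjusted p = 0.0122 and 0.0035), and the call at 26 weeks was lost without db/m replicate 1 (0.40, adjusted p = 0.0979). Mmp2, gelatinase A, averaged 3.48 ± 1.92 in db/db Unx and 1.73 ± 0.58 in db/m at 26 weeks, and 6.11 ± 3.23 and 2.59 ± 0.25 at 35 weeks, and was called at neither age (adjusted p = 0.112 and 0.0538). It passed at 26 weeks without replicate 9 of db/db Unx (0.0321). At 35 weeks it passed without any 1 of replicates 1, 8, 9 and 11 of db/db Unx at 26 weeks or 2 and 3 at 35 weeks (0.00665 to 0.0466).

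Between 26 and 35 weeks, 7 members were higher at the later age in db/db Unx and 1 was lower. Of all genes 11.3% were called, with 5.16% higher and 6.14% lower. Those higher were Tgfbi (0.70 ± 0.13, limma adjusted p = 0.000584), Ctgf (0.74 ± 0.15, 0.00191), Col18a1 (0.36 ± 0.07, 0.00137), Ltbp2 (0.81), Timp1 (0.73), Lox (0.64) and Tgfbr2 (0.26), and Timp3 was lower (-0.20, 0.0252). The ages did not overlap for Col18a1 and Tgfbr2, beside 0.482% of all genes. The calls of Ltbp2, Timp1, Lox, Tgfbr2 and Timp3 were each lost without replicate 5 of db/db Unx at 35 weeks, with adjusted p of 0.132, 0.125, 0.176, 0.126 and 0.119, and also without replicate 6 (0.0664 to 0.119). Timp3 was also lost without replicate 2 (0.0747), Tgfbr2 without replicate 3 (0.0548), and Lox without replicate 1, 8, 9 or 12 of 26 weeks (0.0505 to 0.0536). With a pseudocount of 0.1 Lox and Timp1 were lost (0.137 and 0.105), with quantile normalization Lox and Timp3 (0.0565 and 0.0861), and without trend and robust moderation Tgfbr2 and Timp3 (0.0531 and 0.0622). Leaving out a single library of 35 weeks also added calls: Mmp14 without replicate 1, Col6a2 and Tgfb1 without replicate 2, and Col8a1, Mmp2 and Timp2 without replicate 3 (0.0162 to 0.0449). Without replicates 3, 5 and 6, which leaves 2 libraries at 35 weeks, limma called none of the members and 8 of all 13495 genes. An unadjusted limma p below 0.05 was reached by 4 of the 42 members and by 1001 of all 13495 genes. The log2 difference was then -0.20 for Timp3, 0.21 for Tgfbr2 and 0.29 for Col18a1, each within 1.5 times of that with all libraries. It was smaller by over 1.5 times for Lox (0.42), Ctgf (0.36), Ltbp2 (0.44), Tgfbi (0.33) and Timp1 (0.25).

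In db/m, 3 members were higher at 35 than at 26 weeks and 4 lower. Of all genes 7.4% were called, with 2.73% higher and 4.68% lower. Thbs1 (0.57 ± 0.14, limma adjusted p = 0.00831), Thbs2 (0.94 ± 0.26, 0.0215) and Col18a1 (0.26 ± 0.08, 0.0476) were higher. Col1a2 (-0.58 ± 0.12, 0.00262), Tgfbi (-0.47 ± 0.15, 0.0427), Fbln5 (-0.42 ± 0.10, 0.0061) and Bgn (-0.34 ± 0.09, 0.0135) were lower. Ages did not overlap for Col1a2 and Tgfbi, beside 3.49% of all genes in that direction, and for Thbs1, beside 1.5%. The Col18a1 call was lost in 19 of the 28 fits that left out 1 library, with adjusted p up to 0.159 without db/m replicate 4 of 35 weeks, and under 5 settings of the filter, scaling, moderation or groups fitted (0.0513 to 0.0897). The Tgfbi call was lost without any 1 of db/m replicates 1, 2, 3 and 5 of 26 weeks or 1, 3, 4, 5 and 6 of 35 weeks (0.0502 to 0.107). The Thbs2 call was lost without db/m replicate 4 or 5 of 26 weeks or 2 or 5 of 35 weeks (0.0504 to 0.0808), and Tgfbr1 passed without replicate 2 of 35 weeks (0.0306). The disease and age comparisons share libraries, so a low db/m group at 35 weeks enters both the age comparison in db/m and the disease comparison at 35 weeks.

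Levels per kilobase of the longest principal coding transcript put the members over a wide range. Timp3 had a mean of 302 and 544 per kilobase in db/db Unx and db/m at 26 weeks, and 264 and 531 at 35 weeks. Sparc was second in every group, with 53.9, 47.3, 58.9 and 41.6 in the same order of groups. Next, in an order that differed between the groups, came Ctgf with 26.5, 27.4, 46.3 and 32.1, Bgn with 29.8, 24.5, 31.7 and 19.3, Col18a1 with 28.3, 17.4, 36.3 and 20.9, Tgfbr2 with 16.9, 21.6, 20.1 and 23.3, and Fbln5 with 18.1, 20.9, 17.7 and 15.6. The fibril collagens stood much lower: Col1a2 had 6.13, 4.39, 6.53 and 2.89 per kilobase, Col3a1 3.63, 2.99, 4.69 and 2.58, and Col1a1 1.53, 1.01, 2.21 and 0.925. The lowest tested member was Ltbp2, at 0.051, 0.040, 0.208 and 0.072.

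**Figure D4:**
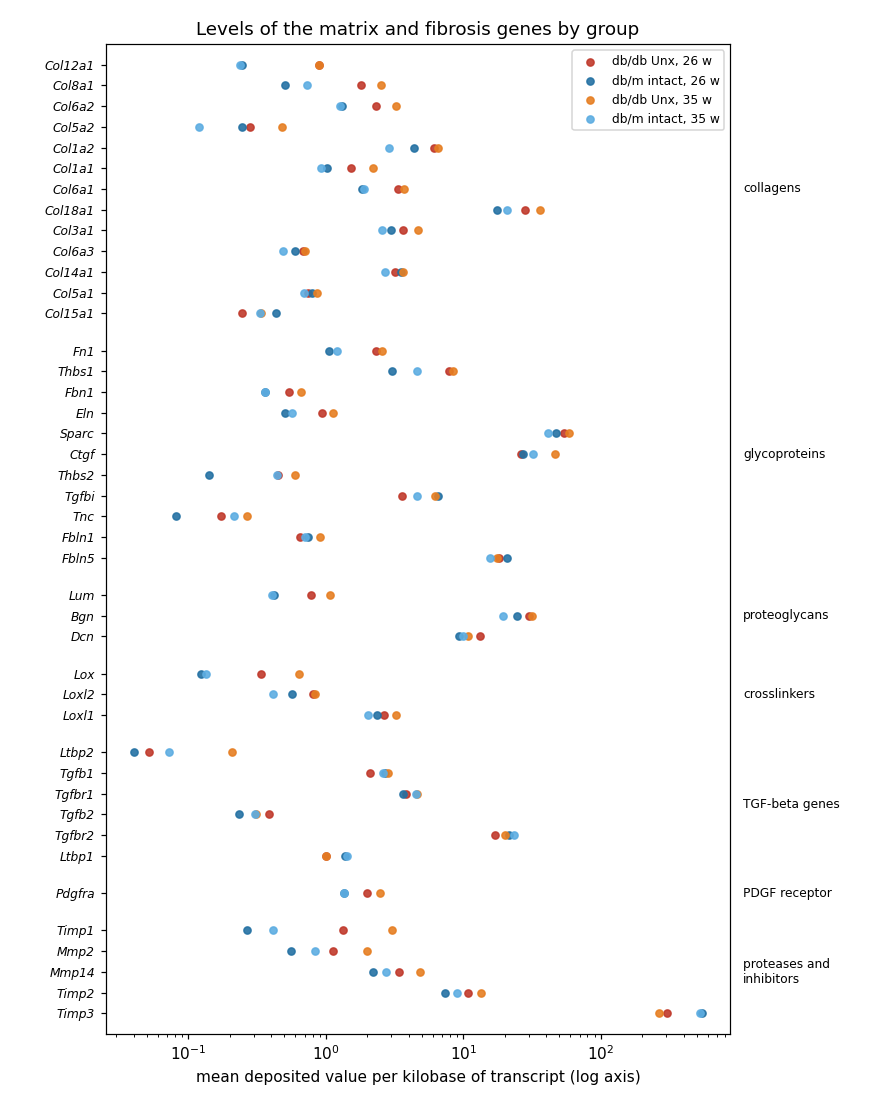
The horizontal log axis is the mean deposited value per kilobase of transcript, and each row is a tested member with 1 point for each of the 4 groups. Timp3 lies farthest right, between 264 and 544, and Ltbp2 farthest left, between 0.040 and 0.208.

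The mean deviation of the members from their own means over all libraries, in log2 units, summarised how libraries differed. It lay between -0.193 and 0.205 in db/db Unx and -0.351 and -0.157 in db/m at 26 weeks, and between 0.161 and 0.694 in db/db Unx and -0.285 and -0.173 in db/m at 35 weeks. Within db/db Unx of 35 weeks, replicate 5 was the highest (0.694), then replicate 6 (0.464), and replicates 1, 3 and 2 had 0.250, 0.205 and 0.161. In the same 5 libraries, in the order 5, 6, 1, 3, 2, the injured tubule marker sum was 8623, 8277, 5913, 6721 and 4631. The sum of 6 myofibroblast and smooth muscle markers was 129, 94.3, 77.4, 84.1 and 90.6 in that order, and the corresponding sums of 7 fibroblast and pericyte markers were 47.9, 42.4, 38.4, 28.9 and 38.1. Replicate 5 was the highest library of its group in these 3 sums, and the part of these cells in the members' levels was not tested.

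**Figure D5:**
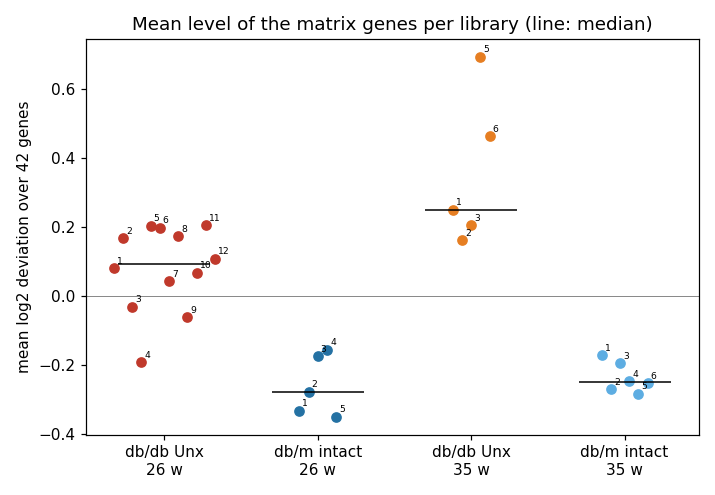
The vertical axis is the mean over the 42 tested members of log2(value + 1) minus each gene's mean over the 28 libraries; each point is a library, numbered by its replicate, and the line is the group median. Replicate 5 of db/db Unx at 35 weeks is the highest point, at 0.694.

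Across the whole lists, markers of injured tubule cells were higher in db/db Unx for 7 of 8 genes at 26 weeks and 8 of 8 at 35 weeks, with sums of 2598 to 5260 in db/db Unx and 849 to 1035 in db/m at 26 weeks, and 4631 to 8623 and 873 to 1064 at 35 weeks. Of 8 macrophage markers 2 were lower at 26 weeks and 4 were higher at 35 weeks, with sums of 56.5 to 107 in db/db Unx and 98.6 to 142 in db/m, and of 80.7 to 227 and 84.9 to 123. Beside the counts of these lists, 17.2% of all tested genes were higher and 17.7% lower at 26 weeks, with 15.9% and 16.4% at 35 weeks. Of the 8 macrophage markers 1 had a log2 difference above 0 at 26 weeks and 7 at 35 weeks. Among them C1qa, a complement component made by macrophages, averaged 26.2 in db/db Unx and 12.4 in db/m at 35 weeks. The macrophage sums of that db/db Unx group were 227, 205 and 195 in replicates 3, 5 and 6, and 124 and 80.7 in replicates 1 and 2. Of 5 tested fibroblast and pericyte markers 2 were higher at 26 weeks and 1 at 35 weeks, with sums of 23.8 to 41.0 in db/db Unx and 26.8 to 33.1 in db/m, and of 28.9 to 47.9 and 26.6 to 36.1. At 26 weeks those higher were Scara5 (1.29 ± 0.21, limma adjusted p = 5.77e-06) and Pi16 (0.55 ± 0.14, 0.00279), and at 35 weeks Cdh11 (0.64 ± 0.20, 0.0106). Of the 5 markers 4 had a log2 difference above 0 at 26 weeks and 5 at 35 weeks. The one below 0 was Pdgfrb, the pericyte and fibroblast PDGF receptor, at -0.17 ± 0.12, with 0.28 ± 0.14 at 35 weeks, called at neither age.

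Smooth muscle actin, Acta2, was higher at 26 weeks by 0.62 ± 0.14 (limma adjusted p = 0.000749) and had 0.23 ± 0.16 at 35 weeks (0.293). It was 1 of 3 myofibroblast and smooth muscle markers of 6 called at 26 weeks, against 1 of 6 at 35 weeks. All those called were higher, as were 17.2% and 15.9% of all tested genes. The sums of these markers were 68.6 to 91.1 in db/db Unx and 48.5 to 70.0 in db/m, and 77.4 to 129 and 52.9 to 84.1. Of 6 endothelial markers 2 were lower at both ages, Kdr and Emcn, beside 17.7% and 16.4% of all tested genes. Without the 3 libraries, limma called at 35 weeks all 8 injured tubule markers higher and none of the macrophage, fibroblast and pericyte, or myofibroblast and smooth muscle lists, of which 1, 2 and 1 had an unadjusted p below 0.05. Of all genes 17.8% were called in that fit, and 28.4% had an unadjusted limma p below 0.05. The part of each cell type in the matrix genes was not tested.

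Genes that modify and process collagen included calls in both directions. Of 22 tested genes of collagen processing 6 were higher and 4 lower at 26 weeks, and 5 and 2 at 35 weeks. That is 45.5% called at 26 weeks and 31.8% at 35 weeks, beside 34.9% and 32.3% of all tested genes. Pcolce, which enhances procollagen cleavage outside the cell, was higher by 0.71 ± 0.07 and 0.80 ± 0.08 (limma adjusted p = 6.76e-11 and 1.4e-10). P4hb, the beta subunit of prolyl 4-hydroxylase and a general disulfide isomerase, was lower, at -0.60 ± 0.05 and -0.56 ± 0.05, as was Crtap, a part of the prolyl 3-hydroxylation complex, at -0.67 ± 0.08 and -0.61 ± 0.10. Of 7 other collagens 14.3% were called at 26 weeks and 28.6% at 35 weeks. Col27a1 was higher at both ages, by 0.97 ± 0.18 and 1.23 ± 0.20, and Col16a1 was lower at 35 weeks, at -0.49 ± 0.19 (0.0452).

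Of 17 other glycoproteins and proteoglycans 2 were higher and 2 lower at 26 weeks (23.5% called), and 6 and 2 at 35 weeks (47.1%). Of all tested genes 34.9% and 32.3% were called. Spon1, F-spondin, was higher by 1.76 ± 0.16 and 1.44 ± 0.19. Mgp, matrix Gla protein, an inhibitor of calcification, had -0.00 ± 0.12 at 26 weeks and 1.03 ± 0.14 at 35 weeks (limma adjusted p = 5.68e-07). Fmod, fibromodulin, a small collagen-binding proteoglycan, was lower at both ages, at -1.33 ± 0.23 and -1.67 ± 0.26. Of 19 other TGF-beta genes 3 were higher and 5 lower at 26 weeks (42.1%), and 2 and 3 at 35 weeks (26.3%). Itgav, a chain of the integrins that activate latent TGF-beta, was higher by 0.47 ± 0.07 and 0.49 ± 0.08, and Ltbp3, another latency protein, by 0.86 ± 0.17 and 0.84 ± 0.19. Itgb6, a partner chain of Itgav, was lower, at -0.69 ± 0.16 and -0.65 ± 0.18.

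Of 14 other proteases and inhibitors 2 were higher and 3 lower at 26 weeks (35.7%), and 2 and 2 at 35 weeks (28.6%), beside the 34.9% and 32.3% of all tested genes. Plau, urokinase, was lower at both ages, at -0.80 ± 0.14 and -1.01 ± 0.16 (limma adjusted p = 1.47e-05 and 2.92e-06). Mmp13, a collagenase, was lower at 26 weeks, at -1.31 ± 0.20, and had -0.17 ± 0.22 at 35 weeks. Ctsk, cathepsin K, which degrades collagen in lysosomes, had 0.20 ± 0.18 at 26 weeks and was higher at 35 weeks, by 1.09 ± 0.21 (5.92e-05). Without replicates 3, 5 and 6 of db/db Unx at 35 weeks, 1 gene of collagen processing was higher and 2 lower, 1 other collagen was higher, 4 other glycoproteins and proteoglycans were higher and 2 lower, 3 other TGF-beta genes were higher, and 2 other proteases and inhibitors were higher and 1 lower. Of all genes 17.8% were then called in either direction. Among the genes named, Col16a1 and Itgb6 were then no longer called (limma adjusted p = 0.116 and 0.0656), with log2 differences of -0.60 and -0.69, no smaller than with all libraries.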

How the data were processed

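Kidney RNA was isolated by TRIzol followed by RNeasy columns, and Nextera XT was used for the libraries, per the labels' protocols. Reads were processed with DRAGEN against GRCm38 (mm10), per the submitters' processing notes. No version, annotation, strand handling or scaling method is stated there. The authors deposited 1 table of signal values with column sums between 896873 and 1018930, treated here as scaled by 1 factor per library. Reads per library were estimated from the spacing of low values, of which 89.9% to 92.4% lay on whole steps within a tolerance of 0.1; as the values are not whole reads throughout, no count test was used.

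Genes that reached 1 in 5 or more of 28 libraries were kept. The model, from limma 3.58.1 (R 4.3.3), was fitted to log2(value + 1) (1 mean per group, trend and robust moderation, two-sided), p-values were adjusted by Benjamini-Hochberg over 13495 genes, and genes with an adjusted p below 0.05 were called. The pseudocount of 1 understates changes of low genes. Errors of log2 differences are SE, those of means SD. The fit was tested on simulated data. The members and gene lists were chosen with earlier results of these data known. In each class, values by library are given for the called members of smallest adjusted p (no more than 4), for members called in the difference between ages or lower in db/db Unx, and for the member highest per kilobase; up to 3 genes per pathway list are named. Of the 14845 gene identifiers of the table, 14834 matched GENCODE M21, the source of symbols, gene coordinates and transcript lengths. The alternatives were a pseudocount of 0.1, no filter, 2 other scalings, no trend or robust moderation, a replicate block, fits of the compared groups alone, each library left out, and, chosen after seeing the data, 3 libraries left out.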

Additional observations from a re-analysis of the deposited data

Results flagged for a closer look

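In 9 of the 126 pairs of a member and a group of 5 or 6 libraries, 1 library lay farther from the others than Dixon's test allows, where chance gives about 1 in 20. Of these, 5 fell in the db/db Unx group of 35 weeks and 4 in the db/m group of 26 weeks. In db/db Unx at 35 weeks, replicate 5 was high for Col5a2 (6.13, next 3.03), Sparc (174, next 134), Lum (4.39, next 2.46) and Tgfbr2 (76.7, next 69.2), and replicate 6 was high for Ltbp1 (6.20, next 4.77). In db/m at 26 weeks, replicate 4 was high for Col6a1 (14.7, next 7.31) and Ltbp2 (0.964, next 0.277), and replicate 3 for Col14a1 (25.05, next 19.96) and Tgfb1 (7.28, next 5.62).

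Tgfbi differed between the ages in its disease comparison, with a log2 difference of 1.17 (limma adjusted p = 0.00711). It was lower in 12 of 12 db/db Unx libraries at 26 weeks than in any db/m library. Without replicates 3, 5 and 6 of db/db Unx at 35 weeks the difference was 0.80 (adjusted p = 0.164). Those libraries also had the highest macrophage marker sums of their group (227, 205 and 195, against 124 and 80.7 in replicates 1 and 2), whose part was not tested.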

How the results depend on the processing

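Leaving out 1 library at a time gave 19 to 25 members and 4178 to 4780 genes called at 26 weeks (22 and 4713 with all libraries), 22 to 29 and 3751 to 4397 at 35 weeks (27 and 4357), 3 to 10 and 633 to 1748 between the ages in db/db Unx (8 and 1526), 4 to 7 and 578 to 1140 between the ages in db/m (7 and 999), and 1 to 4 and 7 to 249 in the difference between the ages (1 and 74). By direction, members higher numbered 15 to 22 and lower 3 to 5 at 26 weeks, and 21 to 28 and 1 to 2 at 35 weeks. The lowest count in db/db Unx between the ages, 633, and the lowest in the difference, 7, came without replicate 5 of db/db Unx at 35 weeks. Without replicates 3, 5 and 6 of that group, 16 members and 2407 genes were called at 35 weeks, 0 members and 8 genes between the ages in db/db Unx, and 0 members and 0 genes in the difference, where 5 members and 1168 genes had an unadjusted limma p below 0.05; fewer libraries enter these fits.

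Same-numbered libraries did not deviate together (correlations of -0.135 to 0.084), so the numbers do not pair them. With the replicate number as a block, 17 members and 3919 genes were called at 26 weeks, 25 and 4099 at 35 weeks, 3 and 483 between the ages in db/db Unx, 5 and 684 in db/m, and 29 genes in the difference between the ages. At 26 weeks the block gave 12 members higher and 5 lower, and quantile normalization 6 lower. Without trend and robust moderation 41 genes were called in the difference between the ages. Of 7434 log2 differences of members under an alternative, 0 reversed a call, 155 fell short of the threshold that the reported value passed and 61 passed it where the reported value did not; causes were not tested. Among the members not called with the reported settings, quantile normalization gave calls for Col15a1, Sparc, Tgfb1 and Ltbp1 at 26 weeks and Fbln5 and Ltbp1 at 35 weeks, and a fit of the compared groups alone for Fbn1 and Sparc at 26 weeks and Tgfbr2 and Mmp2 at 35 weeks. The depth of about 22.4 to 33.8 reads per unit of value limits members near 0, such as Ltbp2, Timp1 and Lox.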

Other observations

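Collagen I protein is a trimer of 2 alpha-1 and 1 alpha-2 chains. The RNA values of the 2 genes did not stand in that ratio, but RNA and assembled protein are unlike measures. Per kilobase of principal transcript, Col1a1 over Col1a2 ranged from 0.118 to 0.482 over the 28 libraries with a median of 0.256. Its median was 0.246 in db/db Unx and 0.223 in db/m at 26 weeks, and 0.339 in db/db Unx and 0.293 in db/m at 35 weeks. With the union of exons as length it ranged from 0.247 to 1.01, so the ratio depends on the length used. Col6a1 over Col6a2 had a median of 1.399 (0.823 to 2.92) and Col6a3 over Col6a2 of 0.303 (0.167 to 0.736).

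Within the 12 db/db Unx libraries of 26 weeks, the level of Col1a1 was compared with that of the 41 other tested members on the log2(value + 1) scale. Pearson's r was above 0 for 34 of 41, with a median of 0.335. The relation was not computed for genes outside the members, so no share over all genes stands beside this count. Col6a1 passed after adjustment over the 41 (r = 0.84, permutation p = 0.00081, adjusted p = 0.0332; Spearman's rho = 0.88, adjusted p = 0.00615), and r was 0.77 without replicates 3 and 4, the farthest from the median of Col1a1. Timp2 passed by rank (rho = 0.88, adjusted permutation p = 0.00615) and not by r (0.78, adjusted p = 0.054). Without those 2 libraries r was above 0 for 25 of 41, with a median of 0.096, so the count of positive r rests in part on them. The libraries share depth and tissue composition, whose part was not tested.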
